A study of Caenorhabditis elegans with 8 samples.

Results

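Occupancy by ribosomes was examined for 7 genes of the P granule core of Caenorhabditis elegans, out of 20505 coding sequences (CDS) in the deposited table. They were chosen by name: the 4 germline helicases glh-1 (T21G5.3), glh-2 (C55B7.1), glh-3 (B0414.6) and glh-4 (T12F5.3), the 2 PGL scaffold proteins pgl-1 (ZK381.4) and pgl-3 (C18G1.4), and deps-1 (Y65B4BL.2). The rule of choice used no measured value, but earlier results of these data were known when it was made.

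P granules are condensates of RNA and protein that sit on the outer face of germ cell nuclei and are passed through the egg to the germ line of the next generation. GLH proteins are DEAD-box RNA helicases of the Vasa family, and GLH-1, GLH-2 and GLH-4 carry phenylalanine-glycine repeats like those of nuclear pore proteins, which GLH-3 lacks. PGL-1 and PGL-3 bind each other and RNA and form the scaffold of the granule, while DEPS-1 is a P granule protein needed for PGL-1 assembly and for normal accumulation of glh-1 mRNA. Hermaphrodites make sperm in the fourth larval stage (L4) and switch to oocytes as they become adults.

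All 8 libraries held ribosome-protected fragments, the stretches of mRNA shielded by a ribosome, from whole worms of the wild-type strain N2. Per the labels, larvae came from prepared eggs and fed on NA22 bacteria on NGM plates. The 4 young-adult libraries were the 4 combinations of monosome isolation (over a sucrose gradient, or through a MicroSpin gel filtration column) and library construction (the laboratory's own protocol, in-house below, or the ARTseq kit), 1 library each. The 4 L4 libraries differed in the gel window cut out for fragments, 25 to 30, 28 to 30, 28 to 35 or 26 to 34 nt, with 1 library each. The table gives them as numbers 5 to 8 without the window, and the numbers serve as names here. The titles of the young-adult libraries share a number that the titles do not explain, and nothing says that the L4 libraries came from separate cultures. The p-values therefore measure only the spread between these libraries, which may be technical.

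Reads recovered from the steps in the values came to between 18018744 and 38132794 per young-adult library and 26078844, 21814060, 4999364 and 3684924 for L4 libraries 5 to 8. L4 library 8 stood apart from its label. Over 13592 CDS its log2 values correlated with the young-adult libraries at Pearson r between 0.963 and 0.975, and with L4 libraries 5 to 7 at r between 0.774 and 0.785. The stage differences of the 7 genes and the counts of the lists are therefore given with and without the library labelled L4 library 8. Setting a library aside for its likeness to the other group tends by itself to widen differences and to narrow the spread. The results without it are thus no independent support for those as labelled. Between L4 libraries 5 to 7 and the young adults, the summed RPKM (reads scaled to the length of the feature and to the depth of the library) of 12 oocyte markers went from between 63.2 and 68.3 to between 2099 and 2430, and L4 library 8 had 2060. The oocyte markers oma-2 and puf-5 were listed at 0 in an L4 library. The summed RPKM of 10 sperm markers lay between 277 and 414 in L4 libraries 5 to 7, between 111 and 129 in young adults and at 110 in L4 library 8.

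Germ line markers were present in every library. The summed RPKM of 10 markers of the germ line before oogenesis was between 435 and 452 in L4 libraries 5 to 7, 479 in L4 library 8 and between 481 and 599 in young adults. The highest of these markers, gld-1, weighed on that sum, with a mean of 124 RPKM in L4 libraries 5 to 7 and 238 in young adults. The median log2 difference of the 10 markers, young adult minus L4, was below 0, at -0.16 as labelled and -0.18 without L4 library 8. In bulk worms, fewer germ cells and less RNA per germ cell cannot be told apart, and without an mRNA library RPKM does not separate mRNA abundance from translation. glh-1 and glh-2 are close relatives, and the sources used here do not say how reads matching both were counted, so their single values are uncertain.

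All 7 genes were occupied in all 8 libraries, and their order by RPKM, which is per length, held at the top and shifted below it. glh-1 stood highest in every library, with between 1.81% and 3.13% of the 20505 CDS above it. pgl-1 came next in every library, with between 2.84% and 4.87% above it. In the young adults the order by mean RPKM went on with pgl-3, deps-1, glh-2, glh-4 and glh-3. The ranges of pgl-3 and deps-1 overlapped there, as did those of deps-1 and glh-2, while all other neighbours were separated in all 4 libraries. In L4 libraries 5 to 7 the order was glh-1, pgl-1, deps-1, pgl-3, glh-4, glh-3 and glh-2. Here deps-1 and pgl-3 overlapped, and so did glh-3 and glh-2. The place of glh-2 thus went from the fifth to the last of the 7, and in L4 library 8 it was again the fifth.

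**Figure D1:**
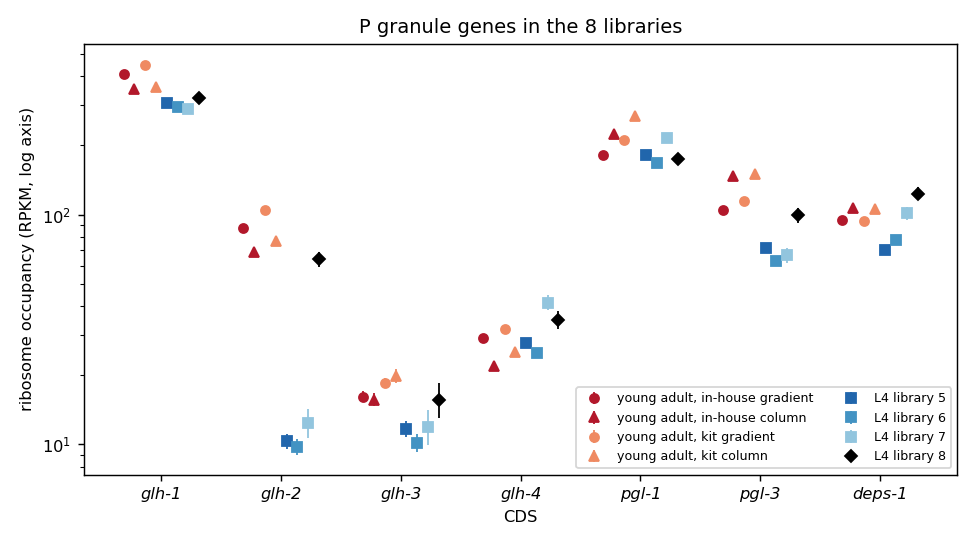
Ribosome occupancy of the 7 P granule genes in each of the 8 libraries, in RPKM on a log axis. Circles are gradient and triangles column libraries of young adults, squares are L4 libraries 5 to 7, the diamond is L4 library 8, and vertical lines are 95% Poisson intervals for counting error, mostly hidden by the symbols. glh-2 lies between 9.72 and 12.4 RPKM in L4 libraries 5 to 7 and at 63.9 or above in the other 5 libraries.

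Among the helicases, glh-1, the most studied GLH and the one most needed for fertility, had 411, 353, 450.3 and 361 RPKM in the young-adult in-house gradient, in-house column, kit gradient and kit column libraries. In L4 libraries 5 to 8 it had 306, 295, 289 and 323 RPKM. Every young-adult library was above every L4 library, by a narrow margin, since the lowest young adult was at 353 and the highest L4 library, number 8, at 323.

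glh-2, which acts together with glh-1 in P granule assembly, had 87.6, 68.6, 105 and 76.8 RPKM in the young adults in the same order. In L4 libraries 5 to 8 it had 10.3, 9.72, 12.4 and 63.9 RPKM. L4 library 8 lay just below the young adults, and the other 3 L4 libraries were all far lower. The lowest value rested on 620 reads, and the 12.4 RPKM of L4 library 7 on 181 reads with a 95% Poisson interval from 10.6 to 14.3 RPKM, which covers counting error only, as do all such intervals here.

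glh-3, the GLH without the repeats, was the lowest of the 7 in young adults at 16.1, 15.7, 18.6 and 19.8 RPKM. Its L4 values were 11.7, 10.1, 11.9 and 15.6 RPKM, the last one in L4 library 8. The groups did not overlap, but L4 library 8 came within its counting interval of the lowest young adult: its 15.6 RPKM rested on 126 reads, with an interval from 13 to 18.6.

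glh-4, the longest of the 4 with a feature length of 3499 bases, had 29.0, 21.9, 31.9 and 25.3 RPKM in young adults. In L4 libraries 5 to 8 it had 27.6, 24.9, 41.4 and 34.8 RPKM. The groups overlapped, and the 2 highest values of all belonged to the 2 shallowest libraries, L4 libraries 7 and 8.

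Between the scaffold genes, pgl-1 had 181, 224, 212 and 268 RPKM in young adults and 181, 169, 215 and 175 RPKM in L4 libraries 5 to 8. These groups overlapped, and the young-adult gradient libraries were no higher than the highest L4 library. pgl-3 had 105, 147, 115 and 151 RPKM in young adults and 71.7, 63.0, 66.7 and 99.2 RPKM in L4. Its groups did not overlap, although L4 library 8 was close to the in-house gradient library.

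deps-1 had 94.4, 107, 93.7 and 106 RPKM in young adults and 70.0, 77.8, 102 and 123 RPKM in L4 libraries 5 to 8. The groups overlapped, and the highest value of all 8 was in L4 library 8.

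Stage was compared as young adult minus L4 with limma on log2(RPKM + 1), adjusted by Benjamini-Hochberg over all CDS tested, and a CDS was called at an adjusted p under 0.05. The young adults belong to one experiment of the series and the L4 worms to another, so in every stage difference here stage and experiment, with its isolation, preparation and gel window, cannot be told apart. As labelled, with 4 libraries against 4, 11.1% of the 13592 CDS tested were called higher in young adults and 27.6% lower, and 3 of the 7 genes were called higher and none lower. Without L4 library 8, 22.7% of 13494 CDS were called higher and 46.6% lower, and 4 of the 7 were called higher and none lower. The groups did not overlap for 4 of the 7 genes, with or without L4 library 8, against 29.7% of all CDS tested with it and 67.8% without it.

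glh-2 had the largest stage difference of the 7, with 84.5 ± 15.7 RPKM in young adults (SD, n = 4) against 24.1 ± 26.6 in all 4 L4 libraries, or 10.8 ± 1.4 in the 3 without library 8. Its log2 difference in limma was 2.23 (SE 0.54, adjusted p = 0.0218) as labelled and 2.85 (SE 0.17, adjusted p = 1.33e-07) without L4 library 8. That made it 4.69-fold or 7.19-fold higher on the log2(RPKM + 1) scale, and 2.32% or 2.42% of the CDS tested had a higher difference.

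pgl-3 rose too, by 0.78 on the log2 scale as labelled (SE 0.19, adjusted p = 0.0222 in limma) and by 0.92 without L4 library 8 (SE 0.16, adjusted p = 0.000433). Its means were 129 ± 22.9 RPKM in young adults (SD, n = 4) and 75.1 ± 16.5 in L4 (n = 4), or 67.1 ± 4.38 without library 8 (n = 3). The other scaffold gene, pgl-1, stood at 222 ± 36.2 against 185 ± 20.6 RPKM (SD, n = 4 each), a difference of 0.25 with a 95% interval of ± 0.35 that did not pass the test (adjusted p = 0.207), and without L4 library 8 it was 0.23 ± 0.35 (adjusted p = 0.224).

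glh-1 rose by a smaller amount, from 303 ± 14.7 RPKM in L4 to 394 ± 45.7 in young adults (SD, n = 4 each), a log2 difference of 0.37 (SE 0.12, adjusted p = 0.0464), or 0.40 without L4 library 8 (SE 0.13, adjusted p = 0.0201). Its call as labelled did not survive a fit with no filter, one with no abundance trend or a pseudocount of 5 (adjusted p between 0.0502 and 0.0667). glh-3 missed the threshold as labelled, at 0.49 (SE 0.17, adjusted p = 0.0501), and rose without L4 library 8, at 0.60 (SE 0.14, adjusted p = 0.00272). As labelled it did pass with a pseudocount of 0.1, an RPKM filter of 10, quantile normalization, median centring or limma's voom (adjusted p between 0.0164 and 0.0483). It did not with a pseudocount of 5, no filter or no abundance trend (between 0.0512 and 0.0616). The remaining pair, glh-4 and deps-1, did not pass as labelled or without L4 library 8. glh-4 differed by -0.23 ± 0.45 (95% interval, adjusted p = 0.356) and by -0.19 ± 0.43 without L4 library 8, a sign that turned to +0.10 and +0.22 with median centring and to +0.06 with quantile normalization without library 8. deps-1 differed by 0.14 ± 0.43 (adjusted p = 0.570) and by 0.28 ± 0.33 without L4 library 8 (adjusted p = 0.117).

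**Figure D2:**
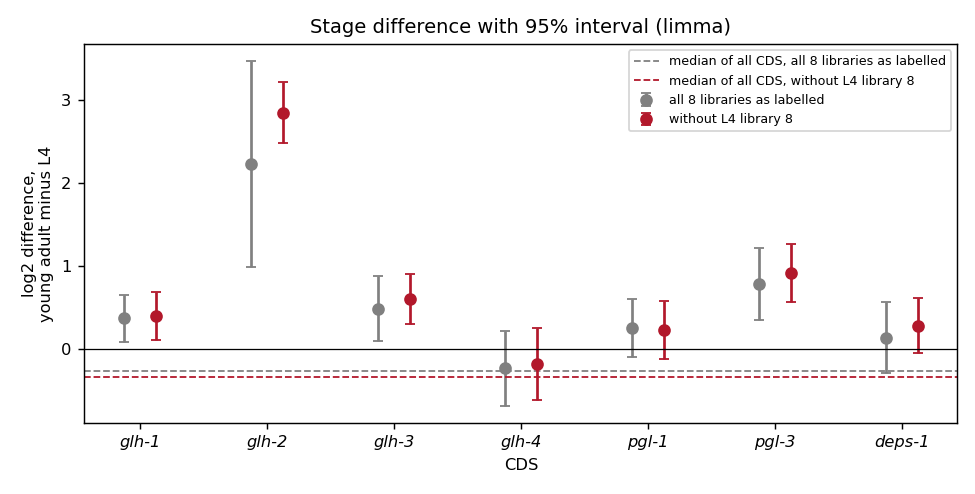
Stage difference of the 7 genes in log2(RPKM + 1), young adult minus L4, with 95% intervals from limma, for all 8 libraries as labelled (grey) and without L4 library 8 (red). Dashed lines mark the median of all CDS tested, -0.26 and -0.34. glh-2 lies farthest above them in both fits, and the intervals of glh-4, pgl-1 and deps-1 include 0.

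These differences stand against a table whose median was below 0. The median of all CDS tested was -0.26 as labelled and -0.34 without L4 library 8. Centring each library on its median turned the split of calls over all CDS from 1507 higher and 3757 lower to 2955 higher and 2148 lower, and without L4 library 8 from 3059 and 6293 to 4937 and 4171. Among the 7 genes, 5 were then called higher as labelled and 6 without L4 library 8, where pgl-1 stood at 0.63, deps-1 at 0.68 and glh-3 at 1.00. glh-4 was the gene not called there.

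The calls as labelled also depended on single libraries. Leaving out any 1 of the other 7 libraries, with L4 library 8 kept in, took the call from glh-2 (adjusted p between 0.0537 and 0.0666) and from glh-1 (between 0.0711 and 0.119). pgl-3 kept its call only without the in-house gradient library (adjusted p = 0.0431) and lost it without any 1 of the other 6 (between 0.0539 and 0.0691). Their log2 differences stayed positive in all of these fits, from 1.98 for glh-2, 0.30 for glh-1 and 0.70 for pgl-3 upwards.

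Ratios within a library do not depend on the scaling between libraries, and they showed how the family's make-up differed. How reads matching both glh-1 and glh-2 were counted is not known, so their ratio and the GLH shares below are uncertain too. glh-2 RPKM was 0.213 ± 0.0158 of glh-1 RPKM in young adults (SD, n = 4), 0.0364 ± 0.0055 in L4 libraries 5 to 7 (n = 3) and 0.198 in L4 library 8, which lay inside the young-adult range from 0.195 to 0.233. Of the summed RPKM of the 4 GLH genes, glh-2 therefore made up 16.1%, 15.0%, 17.3% and 15.9% in the young adults in the order above, and 2.90%, 2.86%, 3.49% and 14.6% in L4 libraries 5 to 8. The share of glh-1 was between 74.3% and 76.9% in young adults, between 81.5% and 86.8% in L4 libraries 5 to 7, and 73.9% in L4 library 8. glh-3 kept a share between 2.97% and 4.10% in young adults and between 2.98% and 3.57% in the 4 L4 libraries, so its ranges overlapped. glh-4 had between 4.77% and 5.32% in young adults and between 7.33% and 11.7% in the 4 L4 libraries, with 7.96% in L4 library 8, so the groups as labelled did not overlap.

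**Figure D3:**
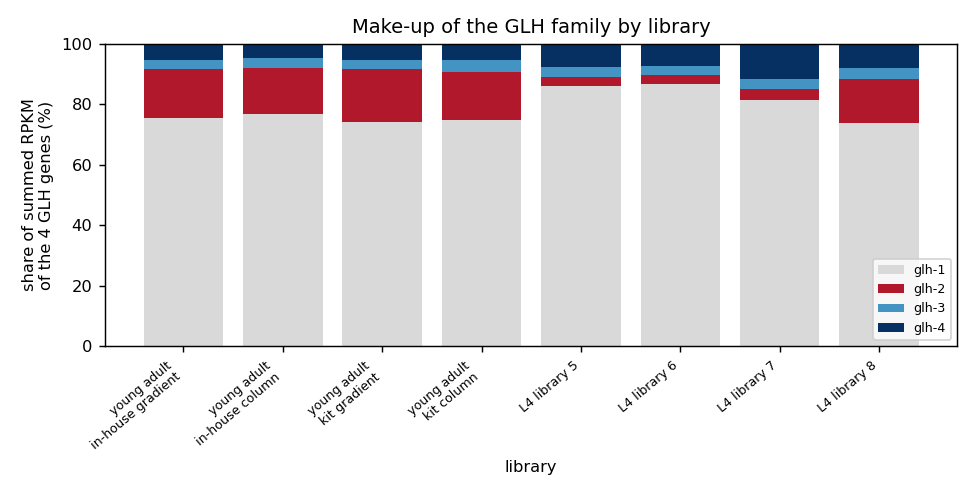
Share of each GLH gene in the summed RPKM of the 4 GLH genes, in percent, 1 bar per library. The glh-2 segment is between 15.0% and 17.3% in young adults, between 2.86% and 3.49% in L4 libraries 5 to 7, and 14.6% in L4 library 8.

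The scaffold pair shifted by less. pgl-3 RPKM was 0.584 ± 0.0497 of pgl-1 RPKM in young adults (SD, n = 4), 0.360 ± 0.0444 in L4 libraries 5 to 7 (n = 3) and 0.567 in L4 library 8. L4 libraries 5 to 7, from 0.310 to 0.396, were all below the young adults, from 0.541 to 0.655, and L4 library 8 was inside the young-adult range. Reads of the 7 genes together made up between 0.217% and 0.242% of the reads of a young-adult library, between 0.150% and 0.171% in L4 libraries 5 to 7 and 0.194% in L4 library 8.

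L4 library 8 was not nearer to the young-adult mean for every gene. The stage groups of glh-4, pgl-1 and deps-1 overlapped, so for these genes the nearer mean does not tell which stage the library resembles. On the log2 scale glh-2, glh-3, pgl-3 and deps-1 were nearer in it to the young-adult mean than to the mean of L4 libraries 5 to 7, and glh-1, glh-4 and pgl-1 nearer to the latter. For deps-1 it lay above both groups, at 123 RPKM. The distance for glh-2 was 0.38 to the young-adult mean and 2.47 to the L4 mean, while that for pgl-1 was 0.32 and 0.09. Within young adults alone, column minus gradient was 0.32 for pgl-1 and -0.27 for glh-1 on that scale.

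Among the L4 libraries themselves each window had 1 library, so values are given with no test. Libraries 5 and 6 were alike, with ratios of library 6 over library 5 between 0.868 for glh-3 and 1.11 for deps-1. Library 7 was higher than libraries 5 and 6 for glh-4 (1.5-fold and 1.66-fold), deps-1 (1.45-fold and 1.30-fold), glh-2 (1.20-fold and 1.27-fold), pgl-1 (1.19-fold and 1.27-fold) and glh-3 (1.02-fold and 1.17-fold), and lower for glh-1 (0.946 and 0.980 of them). For pgl-3 it was 0.931 of library 5 and 1.06 of library 6. Over 12856 CDS, the SD of the log2 ratio was 0.20 between libraries 6 and 5, 0.45 between 7 and 5 and 0.46 between 7 and 6, and library 7 had 4999364 reads against 26078844 and 21814060.

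Monosome isolation was compared within young adults, column minus gradient, with the library preparation as a term. The column is a faster way to collect monosomes than centrifugation through a gradient, and the comparison asks whether it gives the same occupancies. On the column glh-1, glh-2 and glh-4 fell, pgl-1, pgl-3 and deps-1 rose, and glh-3 did not pass the test. In limma, 3 of the 7 were called higher and 3 lower, where 19.8% of the 11569 CDS tested were called higher and 19.2% lower. That fit left 1 residual degree of freedom per CDS, with the spread borrowed across CDS.

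pgl-3 had the largest rise, from 110 ± 6.81 RPKM in the gradient libraries to 149 ± 2.70 in the column libraries (SD, n = 2 each), a log2 difference of 0.44 (SE 0.04, adjusted p = 0.00355 in limma). It was higher on the column in both matched pairs, by 0.48 with the in-house preparation and 0.39 with the kit. pgl-1 rose from 197 ± 21.8 to 246 ± 31.2 RPKM (0.32, SE 0.04, adjusted p = 0.00394), and deps-1 from 94.0 ± 0.542 to 106 ± 1.08 RPKM (0.18, SE 0.04, adjusted p = 0.0218). Both were higher in both pairs, and the deps-1 call was lost with median centring (adjusted p = 0.0629) and with no abundance trend (adjusted p = 0.0961).

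Of the 4 helicases, 3 gave lower values on the column. glh-2 fell by 0.40 on the log2 scale, from 96.3 ± 12.3 to 72.7 ± 5.81 RPKM (SD, n = 2 each; SE 0.05, adjusted p = 0.00409 in limma). glh-4 fell by 0.36, from 30.4 ± 2.06 to 23.6 ± 2.38 RPKM (SE 0.05, adjusted p = 0.00724), and glh-1 fell by 0.27, from 431 ± 27.7 to 357 ± 6.06 RPKM (SE 0.04, adjusted p = 0.00665). Each was lower on the column with both preparations, and the glh-1 call was lost with no abundance trend (adjusted p = 0.0562). glh-3 was at 17.4 ± 1.72 RPKM in gradient libraries and 17.7 ± 2.93 in column libraries, a difference of 0.02 ± 0.16 (95% interval, adjusted p = 0.799) whose sign turned with median centring (-0.03), with quantile normalization and in the in-house pair alone.

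The ratio of pgl-1 to glh-1 RPKM was accordingly 0.441 and 0.471 in the gradient libraries and 0.636 and 0.743 in the column libraries. In L4 libraries 5 to 8 it was 0.592, 0.570, 0.742 and 0.542, all above both gradient libraries, with library 7 inside the range of the column libraries and the other 3 below it. The ratio of pgl-3 to glh-1 was 0.255 in both gradient libraries, and 0.416 and 0.417 in the column libraries, against between 0.213 and 0.234 in L4 libraries 5 to 7 and 0.307 in L4 library 8. How monosomes of the L4 libraries were isolated is not given in the labels, so for these ratios too, stage and isolation cannot be told apart.

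**Figure D4:**
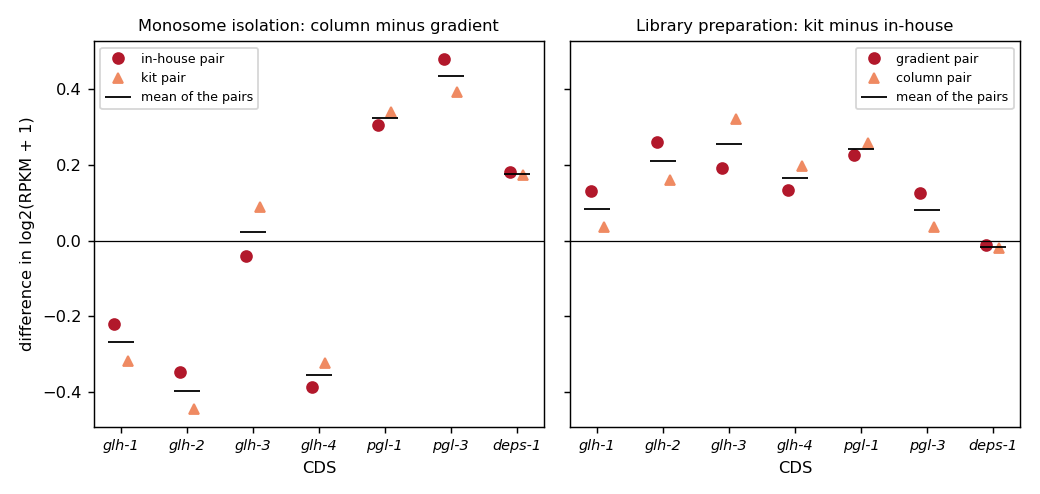
Differences in log2(RPKM + 1) within the young-adult libraries, column minus gradient (left) and kit minus in-house (right), for each of the 7 genes. Circles and triangles are the 2 matched pairs of libraries and the bar is their mean. On the left, glh-1, glh-2 and glh-4 lie below 0 and pgl-1, pgl-3 and deps-1 above 0 in both pairs.

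Library preparation was compared in the same fit, kit minus in-house. limma called 3 of the 7 higher with the kit and none lower, where 25.9% of the 11569 CDS tested were called higher and 10.0% lower. glh-3 rose by 0.26 on the log2 scale (SE 0.06, adjusted p = 0.0326), pgl-1 by 0.24 (SE 0.04, adjusted p = 0.00701) and glh-2 by 0.21 (SE 0.05, adjusted p = 0.0215). All 3 were higher with the kit in both matched pairs, as were glh-1, glh-4 and pgl-3, whose mean differences of 0.08, 0.17 and 0.08 did not pass (adjusted p = 0.157, 0.0640 and 0.190). deps-1 differed by -0.02 ± 0.10 (95% interval, adjusted p = 0.774). The median of all CDS tested was +0.10 here, and median centring turned the split over all CDS from 2992 higher and 1160 lower to 1663 higher and 2012 lower. None of the 7 was then called (pgl-1 at adjusted p = 0.0502), none was called with no abundance trend, and the small differences of glh-1 and pgl-3 turned to -0.03.

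The genes around the core were compared between stages by lists, each described by counts and its median beside the median of all CDS (-0.26, or -0.34 without L4 library 8). The shares of all CDS called in these fits, 11.1% higher and 27.6% lower as labelled, and 22.7% and 46.6% without L4 library 8, are the background of every count that follows. Of 20 partners and assembly factors of P granules, 12 rose and 4 fell as labelled, and 14 rose and 4 fell without L4 library 8, with medians of 1.03 and 1.25. The most occupied were cgh-1, a DEAD-box helicase of germline mRNA particles, and car-1, its binding partner: cgh-1 went from 446 ± 25.5 RPKM in L4 libraries 5 to 7 (SD, n = 3) to 1870 ± 185 in young adults (n = 4), with 1781 in L4 library 8. As labelled and without library 8, the differences were 1.56 and 2.06 for cgh-1, 1.45 and 1.93 for car-1, and 0.85 and 1.05 for the Argonaute gene wago-1, all called in both fits.

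The 4 partners that fell in both fits were ife-1, kgb-1, zyx-1 and pan-1. IFE-1 is a cap-binding protein that binds PGL-1, and ife-1 fell from 664 ± 31.8 RPKM in L4 libraries 5 to 7 to 404 ± 39.2 in young adults, with 537 in L4 library 8 (log2 difference -0.64 as labelled and -0.72 without it). KGB-1 is a kinase that binds GLH proteins and promotes GLH-1 turnover, and kgb-1 differed by -1.01 as labelled and -1.32 without L4 library 8. zyx-1, the zyxin gene, differed by -0.83 and -0.93, and pan-1 by -2.38 and -3.04. The 2 partners that passed in neither fit were mip-1 (0.20 as labelled and 0.15 without L4 library 8, adjusted p = 0.383 and 0.446) and the Piwi gene prg-1 (0.18 and 0.12, adjusted p = 0.401 and 0.542). The remaining 2, mip-2 and meg-2, were called without L4 library 8, at 0.57 and 3.01, and not as labelled, at 0.40 and 2.08 (adjusted p = 0.152 and 0.0654).

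The remaining PGL gene, pgl-2, was far lower than its relatives, at 20.4 ± 2.47 RPKM in young adults (SD, n = 4), 7.46 ± 1.29 in L4 libraries 5 to 7 (n = 3) and 17 in L4 library 8, and it rose in both fits (1.07 and 1.35). meg-1, whose product takes part in P granule assembly and disassembly in the embryo, was at 35.7 ± 1.70 RPKM in young adults and 49.7 in L4 library 8, but at 0.0696 ± 0.104 in L4 libraries 5 to 7, where at least 1 library listed it at 0. pgl-2 and meg-1 were singled out after their values were seen.

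Other granules of germ cells lie next to the P granules. Of 17 genes of Z granules, mutator foci and related compartments, 4 rose and 1 fell as labelled, and 11 rose and 1 fell without L4 library 8, with a median of 0.35 or 0.47. wago-4, an Argonaute of the Z granule, rose in both fits, from 32.1 ± 0.86 RPKM in L4 libraries 5 to 7 to 64.9 ± 2.65 in young adults, with 39.6 in L4 library 8. The other genes called higher as labelled were simr-1, ego-1 and znfx-1. The nuclease gene mut-7 fell in both fits (-0.57 and -0.72), and the most occupied of the list, rde-12, passed in neither (0.08 and 0.10). lotr-1 and rsd-6 passed without L4 library 8 (0.43 and 0.63) and not as labelled (0.28 and 0.46).

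Helicases of the DEAD-box type outside the GLH family gave 4 of 16 higher and none lower as labelled, and 7 higher and 2 lower without L4 library 8, with a median of 0.27 or 0.29. The 4 were cgh-1, vbh-1, ddx-17 and laf-1, and vbh-1, a Vasa- and Belle-like helicase of the germ line, went from 179 ± 15.0 RPKM in L4 libraries 5 to 7 to 342 ± 21 in young adults, with 333 in L4 library 8. inf-1, the initiation factor eIF4A, rose without library 8 (0.38, adjusted p = 0.0440) and not as labelled (adjusted p = 0.0913), while ddx-10 and mel-46 fell without it (-0.57 and -0.59) and did not pass as labelled (-0.42 and -0.45). This list shares cgh-1 with the partners and rde-12, mut-14 and smut-1 with the other compartments.

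In somatic cells of the embryo, PGL granules are cleared by autophagy, and 15 genes of that removal were listed. As labelled 2 rose and 4 fell, and without L4 library 8 5 rose and 5 fell, with a median of 0.06 or 0.01. The falls, 4 and 5 of 15, are near or below the 27.6% and 46.6% of all CDS that fell in these fits. prmt-1, the arginine methyltransferase that acts on PGL proteins, rose from 458 ± 49.3 RPKM in L4 libraries 5 to 7 to 1037 ± 76.1 in young adults, with 627 in L4 library 8. The other gene that rose as labelled was sepa-1, a receptor that bridges PGL proteins to autophagy, at 15.5 ± 1.05 RPKM in young adults, 17 in L4 library 8 and 0.0131 ± 0.0115 in L4 libraries 5 to 7, where it was listed at 0 in at least 1 library. The genes that fell as labelled were lgg-1, the ubiquitin-like autophagy protein (-0.65 in both fits), sqst-1 (-1.03, and -1.26 without L4 library 8), bec-1 (-0.55 and -0.51) and unc-51 (-0.76 and -0.94). Without library 8 the calls of epg-2 (1.67), epg-5 (0.42) and epg-7 (0.89) were added among those higher and that of epg-4 (-0.64) among those lower, while lgg-2 and epg-3 passed in neither fit.

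**Figure D5:**
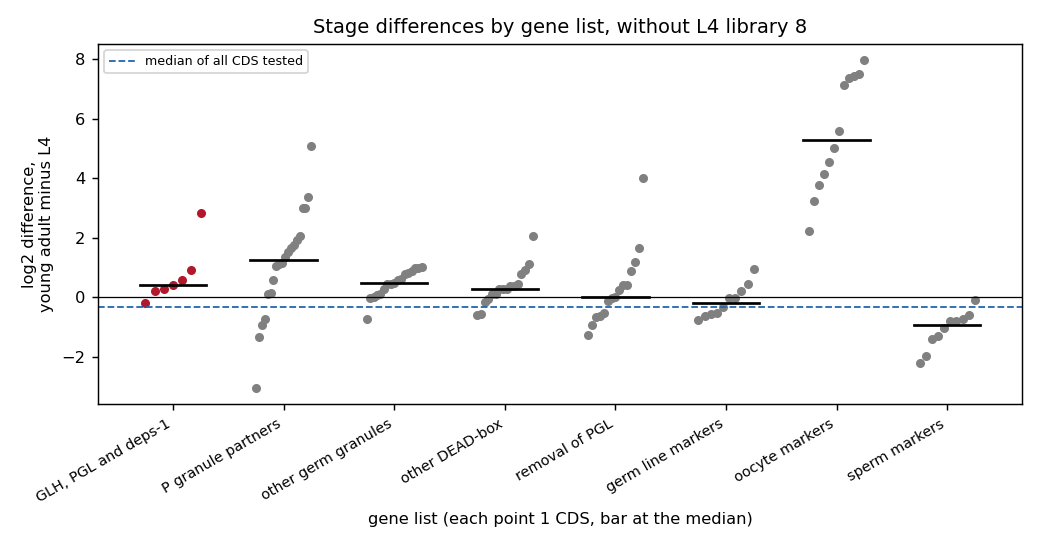
Stage differences in log2(RPKM + 1), young adult minus L4, from the fit without L4 library 8, for each gene of the lists (1 point per CDS, black bar at the list's median, dashed line at the median of all CDS tested). The 7 P granule genes are in red with a median of 0.40, the 12 oocyte markers have a median of 5.3 and the 10 sperm markers one of -0.92.

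Markers of cell states moved with stage beside these genes. All 12 oocyte markers rose in both fits, with a median of 4.01 as labelled and 5.3 without L4 library 8, while of the 10 sperm markers 4 fell as labelled and 9 without it, and none rose. Of the 10 markers of the germ line before oogenesis, 1 rose and 1 fell as labelled, and 1 rose and 4 fell without L4 library 8, with medians of -0.16 and -0.18, where 27.6% and 46.6% of all CDS fell. The one that rose was gld-1, from 124 ± 7.86 RPKM in L4 libraries 5 to 7 to 238 ± 22.2 in young adults, and rec-8 fell in both fits (-0.66 and -0.77), while htp-3, fbf-1 and glp-1 fell without L4 library 8 alone. Of the somatic markers, without L4 library 8 and against the 46.6% of all CDS that fell there, 8 of 8 fell for muscle, 5 of 8 for intestine (1 rose), 6 of 8 for hypodermis (2 rose) and 8 of 9 for neurons. As labelled 6, 1, 6 and 3 of them fell, and 1 hypodermis marker rose. What part these markers' changes had in those of the 7 genes was not tested.

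Across the 8 libraries, likeness between the profiles of a pair of genes was measured as the SD of their difference in log2(RPKM + 1), over 6705 CDS with a mean RPKM of at least 10. The nearest to glh-1 were the constitutive HSP70 gene hsp-1 (SD 0.06), rpoa-49, an RNA polymerase I subunit gene (0.07), and ZK1127.4 (0.08). For pgl-1 they were suf-1 (0.08), Y71H2AM.3 (0.08) and pdtf-1 (0.09), and for pgl-3 ntfc-1 (0.05), the Dicer gene dcr-1 (0.08) and ppfr-1 (0.08). glh-2 had no neighbour as near: C10G11.8 (0.17), and the kinesin genes klp-16 (0.17) and klp-15 (0.24), named after their values were seen.

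None of the 7 was among the 3 nearest of another. The closest pair was glh-1 and glh-3, with an SD of 0.19, where glh-3 held place 267 for glh-1 and glh-1 place 285 for glh-3. glh-1 and glh-2 were at 1.26, and glh-2 was between 1.05 (pgl-3) and 1.52 (glh-4) from the other 6. The 2 scaffold genes were at 0.38 from each other. All 8 libraries enter these distances, so stage, isolation, preparation and depth are shared by every pair.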

How the data were processed

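The 8 libraries hold ribosome-protected fragments of whole N2 worms. The deposited values are RPKM per CDS, made by the authors from reads, feature lengths and library totals. Per the submitters' processing notes, STAR 2.4, Bowtie2 2.2.4 and bcl2fastq 1.8.4 were used, in roles not stated there. The genome build and the counting of reads with several matches are not given in the sources used here, and no sequence or coordinate was used.

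Whole reads were recovered from the RPKM steps in Python 3.11.15 (pandas 2.3.3, numpy 2.4.6). They were whole to within 0.0001 reads for all 19649 CDS above 0 in some library, and 856 CDS were at 0 throughout. The recovered lengths, of which 25.0% are multiples of 3, are called feature lengths. For CDS with few reads the true length may be a multiple of the recovered one. Symbols came from RefSeq locus tags (20051 sequence names matched, 454 did not). In the lists, mut-2 and unc-17 were not matched.

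Differences were tested two-sided with limma 3.58.1 in R 4.3.3 (lmFit and trended eBayes) on log2(RPKM + 1), over all CDS that reached an RPKM of 1 in 2 or more libraries, at a Benjamini-Hochberg threshold of 0.05. Fold changes on this scale understate those of low genes. Isolation and preparation shared a fit with 1 residual degree of freedom. The fits were also run on simulated data, in which all libraries shared the young-adult mean profile apart from a set of changed CDS. That simulation held no library like L4 library 8 and no shift of the median between stages. No conclusion about the calls is drawn from it. The alternatives comprised a pseudocount of 0.1 or 5, an RPKM filter of 10 or none, quantile normalization, median centring, no trend, limma's voom on the recovered reads, each library left out, and, added after seeing the data, several of these without L4 library 8.

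The 7 genes and the lists were chosen with earlier results of these data known. Named are all 7, up to 4 of the most occupied members of each list, members behind counts of 5 or fewer, and the 3 CDS nearest in profile to glh-1, pgl-1 and pgl-3. pgl-2, meg-1 and the CDS nearest to glh-2 were chosen after their values were seen. Muscle, intestine, hypodermis and neuron markers are given by counts.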

Additional observations from a re-analysis of the deposited data

Results flagged for a closer look

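In the L4 group of glh-2, the highest value, 63.9 RPKM in L4 library 8, stood apart from the other 3: its gap to the next library was 0.951 of the whole range, above Dixon's 95% critical value for 4 samples. Such a gap was looked for in 14 groups, the 7 genes in 2 stages, and chance gives one in about 1 in 20 of the groups looked at.

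For glh-3, column minus gradient had opposite signs in the matched young-adult pairs, -0.04 with the in-house preparation and +0.09 with the kit on the log2 scale. The pairs differed by 0.129, a difference that was not tested.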

How the results depend on the processing

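The sign of the stage differences was the same in 144 of 147 alternative values for the 7 genes, and the 3 others were glh-4, which was called in none of them. For isolation and preparation 67 of 70 each kept the sign, and the others were glh-3, glh-1 and pgl-3 at differences that were not called. The stage count of called genes, 3 as labelled, was 2 with a pseudocount of 5, no filter or no trend. It was 4 with a pseudocount of 0.1, an RPKM filter of 10, quantile normalization or voom, and 5 with median centring. It was 6 without L4 library 8 with median centring or quantile normalization, and between 0 and 4 when 1 library was left out. For the P granule partners (16 called) the count was 11 with no filter, and leaving out 1 library gave between 0 and 18. For the counts that follow, only the larger changes are given. For the other germ granule compartments (5 called) the count was 10 with median centring, 8 with voom, between 1 and 12 with 1 library left out, and without L4 library 8 it was 16 with median centring, 15 with quantile normalization and 12 with voom, no trend or a pseudocount of 5. For the other DEAD-box helicases (4 called) it was 7 with quantile normalization or voom, 10 with median centring, between 1 and 9 with 1 library left out, and without L4 library 8 it was 12 with either scaling and 9 with voom, no trend or a pseudocount of 5. For the removal of PGL granules (6 called) it was between 1 and 10 with 1 library left out, and 10 without L4 library 8 with median centring, voom, no trend or a pseudocount of 5. Of the counts with 1 library left out, the highest was in each case the one without L4 library 8. The preparation count, 3, was 1 with quantile normalization (pgl-1), 0 with median centring, 0 with no trend and 5 with voom. Leaving out a library also leaves fewer samples, and the cause of these changes was not tested. For isolation and preparation no library could be left out of the fit, since 3 libraries leave no residual degree of freedom, and the matched pairs stand in for it. No paired analysis was possible because no label pairs a young-adult library with an L4 library. L4 libraries 7 and 8 had the fewest reads, and glh-3 rested on 130 and 126 reads there.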
